A study of Mus musculus with 5 samples.

Results

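The 8 genes described here encode enzymes that build triglyceride and proteins that coat the lipid droplet: Gpat3, Agpat2, Lpin2, Mogat2, Dgat1, Dgat2, Plin2 and Plin3. They were chosen as a named list, and all 8 were found among the 27998 genes of the deposited gene table. Of these, 7 were matched by symbol. Gpat3 is listed there under an older symbol, Agpat9, and was matched by its Ensembl identifier, ENSMUSG00000029314.

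The data are droplet single-cell RNA profiles of epithelial cells from the ileum, the distal part of the small intestine, of C57BL/6 mice aged 8 to 12 weeks. The sham group had a control operation and holds 3 libraries (sham 1, 2 and 3). The resection group had a length of small bowel removed and holds 2 libraries (resection 1 and 2). The labels do not say whether the libraries came from separate mice, so p-values measure only the spread between libraries. The time after surgery is not given in the labels.

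An enterocyte rebuilds triglyceride from the fatty acids and monoacylglycerol that it takes up from digested fat. In the monoacylglycerol pathway, which carries most of this work in the small intestine, MOGAT2 makes diacylglycerol, and DGAT1 or DGAT2 add the last fatty acid. In the glycerol-3-phosphate pathway, GPAT, AGPAT and lipin enzymes make diacylglycerol in 3 steps, and the pathways share the last step. The product leaves the cell in chylomicrons or stays for a time in cytosolic droplets, whose surface carries perilipins such as PLIN2 and PLIN3.

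Total depth was between 11749028 UMIs (sham 1) and 41281731 UMIs (resection 2), and 18235 of 19404 cells were used. A UMI stands for 1 captured RNA molecule. Any pair of libraries shared between 6 and 47 cell barcodes. Clustering gave 21 clusters, and 10 of them were enterocyte-like by their markers. The enterocyte-like cells of each library lay mostly in clusters of its own: 87.8% of those of sham 1 lay in cluster 13, 89.5% of sham 2 in cluster 3, 86.0% of sham 3 in cluster 8, 38.7% of resection 1 in cluster 7 and 57.4% of resection 2 in cluster 1. Sham 1 and resection 1 also had a higher median mitochondrial share per cell (13.7% and 11.7%) than the other 3 libraries (7.24% to 9.19%). Differences are therefore given also inside set A (sham 1 and resection 1) and inside set B (sham 2, sham 3 and resection 2). This split was known from earlier results of these data and is not in the labels.

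A cluster of 1599 cells, led by Gsta1, Fabp6 and Reg3 genes, stayed unnamed because a marker of another class was among its leading genes. It made up 13.6%, 7.40% and 13.6% of epithelial cells in sham 2, sham 3 and resection 2, and 0.0801% and 0.467% in sham 1 and resection 1. Of all epithelial cells, the enterocyte-like share was 55.2%, 44.3% and 35.4% (sham 1, 2 and 3) against 64.7% and 47.6% (resection 1 and 2). The other classes compared were immature enterocyte-like, goblet-like, cycling-like, stem-like and Paneth-like cells. The stem-like cluster was led by genes active in DNA replication, among them Lig1, Dut and Mcm6, and by Hells and Stmn1, beside the stem markers Slc12a2 and Cdca7. At Leiden resolution 0.5 no stem-like or cycling-like class was formed, and 1631 cells led by Ube2c, Stmn1 and Top2a made up an unnamed cluster, so the line between these classes depends on the clustering.

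In the mouse genome (GRCm38), Dgat2 (chr7:99153658-99182719) and Mogat2 (chr7:99219084-99238619) are neighbours on the minus strand, with 36364 bases and 0 annotated genes between them. Dgat1 lies at chr15:76502015-76511953, Plin2 at chr4:86648386-86670060, Plin3 at chr17:56277476-56292873 and Agpat2 at chr2:26593057-26604417, all on the minus strand. Gpat3 (chr5:100845713-100899102) and Lpin2 (chr17:71182560-71249817) lie on the plus strand. All 8 are annotated as protein-coding. Gene bodies of other measured genes overlap Mogat2 (Gm45012), Agpat2 (Egfl7 and Gm20532), Gpat3 (4930458D05Rik) and Lpin2 (Gm26561). Gm45012, Egfl7, Gm20532 and 4930458D05Rik lie on the strand opposite to the gene they overlap, and Gm26561 lies on the same strand as Lpin2. Counting by strand would separate all of these pairs except Lpin2 and Gm26561. Whether the counting used the strand is not given in the sources used here.

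Of the 8 genes, 7 had their highest mean level in enterocyte-like cells, and Plin2 did not. All 8 had their lowest mean level in Paneth-like cells, the secretory cells of the crypt base that make antimicrobial peptides. Levels are the summed UMI counts of a class in a library, scaled to a common total (CPM) with TMM-scaled library sizes. The mean over the 5 libraries was 7.01-fold (Plin2) to 15.8-fold (Gpat3) higher in enterocyte-like than in Paneth-like cells, and the order held in 5 of 5 libraries for each gene. Paneth markers alone took between 240132 and 275449 CPM of the Paneth-like sums, which lowers the CPM of every other gene there. The classes come from clustering of the same cells, with the 8 genes left out of the genes used, and the levels are a description with no test.

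**Figure D1:**
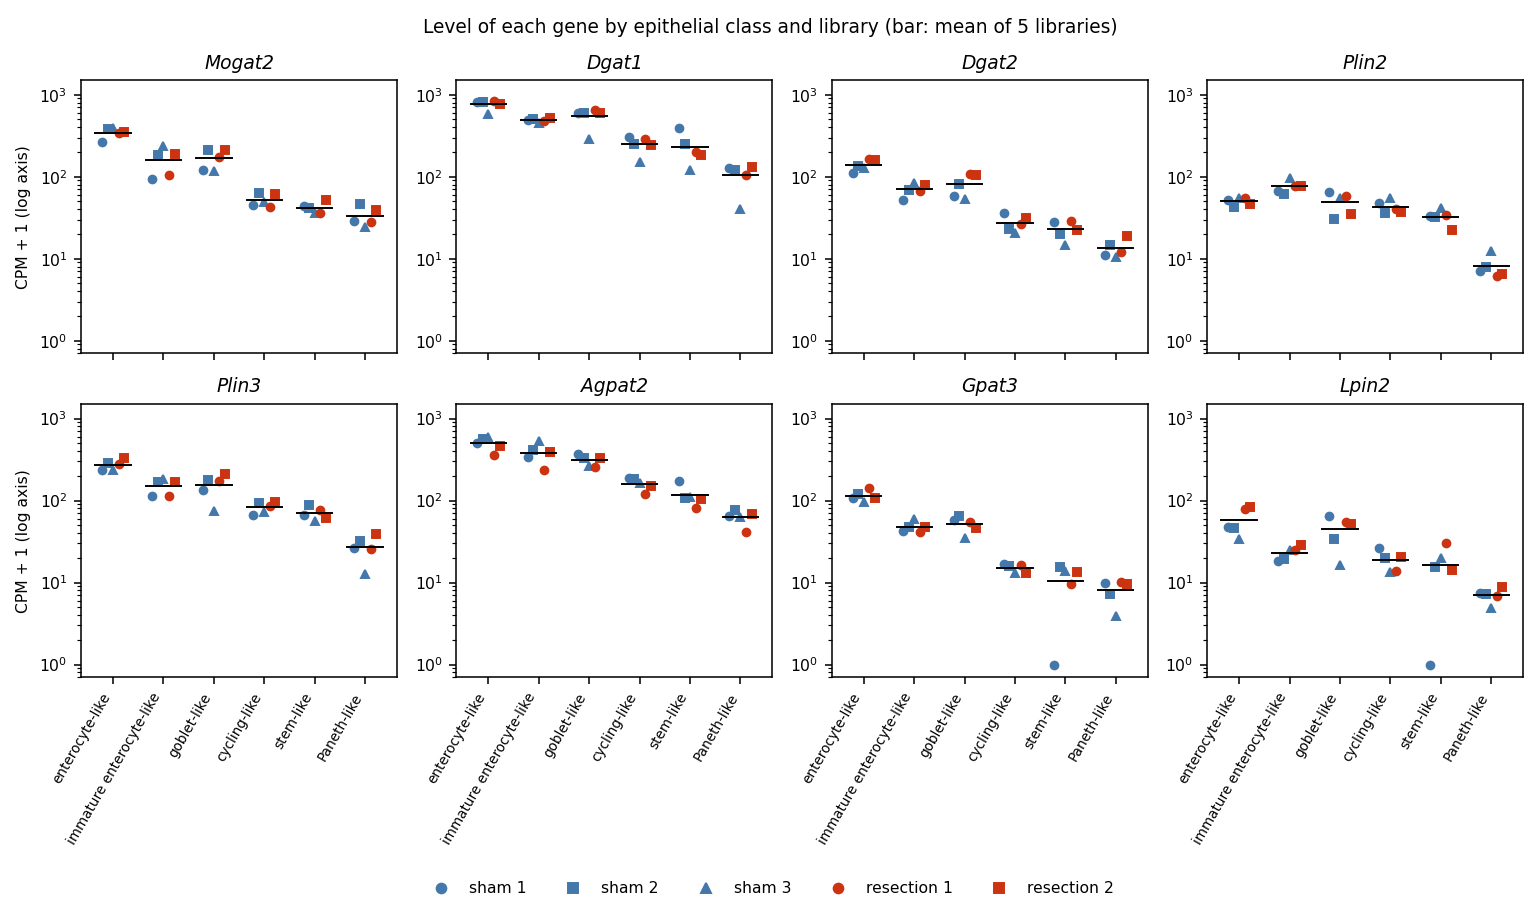
Level of each gene (CPM + 1, log axis) in 6 epithelial classes, with 1 point per library and a bar at the mean of 5 libraries. Enterocyte-like cells lead for 7 genes and immature enterocyte-like cells for Plin2; the points at 1 in stem-like cells are sham 1, where Gpat3 and Lpin2 had no UMI.

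Gpat3 adds the first fatty acid to glycerol-3-phosphate. Its level in enterocyte-like cells was 113 ± 17.6 CPM (SD, n = 5), against 50.6 ± 11.8 in goblet-like and 46.6 ± 7.41 in immature enterocyte-like cells, 2 classes whose ranges overlapped each other. It was 14.0 ± 1.87 CPM in cycling-like cells. The 30 stem-like cells of sham 1 held 0 Gpat3 and 0 Lpin2 UMIs among 168142, which allows a level of up to 17.8 CPM of plain totals for each (3 UMIs; counting error only). The other 4 libraries gave 8.48 to 14.3 CPM of Gpat3 there, under that limit. For Lpin2 they gave 13.2 to 29.7 CPM, with sham 3 (18.7 CPM) and resection 1 (29.7 CPM) above it.

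Agpat2 adds the second fatty acid. It had the flattest profile of the 3 enzymes of this pathway between mature and immature absorptive cells: 499 ± 93.6 CPM in enterocyte-like and 381 ± 109 in immature enterocyte-like cells, a ratio of 1.31 with overlapping ranges, though the order held in 5 of 5 libraries. The immature enterocyte-like class pools clusters that differ in Agpat2 (CPM of plain totals). Cluster 4, led by Areg, F3 and Phlda1, had 501 CPM, against 333 in cluster 0 and 298 in cluster 6. The part of cluster 4 in the ratio was not tested. Goblet-like cells had 310 ± 50.1 CPM, cycling-like cells 159 ± 26.9 and stem-like cells 114 ± 35.1.

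Lpin2, a lipin, removes the phosphate to give diacylglycerol. Of the 8 genes it varied most between libraries in enterocyte-like cells, where its level ranged from 32.9 CPM (sham 3) to 81.2 CPM (resection 2), with a mean of 56.8 ± 21.6. Goblet-like cells had 43.7 ± 19.6 CPM, and enterocyte-like cells were higher in 4 of 5 libraries. Immature enterocyte-like cells had 22.1 ± 4.28 CPM, and all 5 libraries were lower there than in their own enterocyte-like cells, by 2.56-fold on the means.

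Mogat2 was 344 ± 50.4 CPM in enterocyte-like cells and did not overlap any other class. Goblet-like (167 ± 46.7 CPM) and immature enterocyte-like cells (160 ± 61.0 CPM) did not differ beyond their spread. The level in immature enterocyte-like cells was itself uneven, at 91.6 and 104 CPM in sham 1 and resection 1. It was 182, 237 and 186 CPM in sham 2, sham 3 and resection 2. This separated the 2 sets of libraries and not the surgery groups. The class pools clusters that differ in Mogat2 (CPM of plain totals). Cluster 4, led by Areg, F3 and Phlda1, had 283 CPM, against 119 in cluster 0 and 116 in cluster 6. Sham 2, sham 3 and resection 2 gave 212, 404 and 486 cells to cluster 4, and sham 1 and resection 1 gave 4 each. The part of cluster 4 in the uneven level was not tested. Cycling-like cells had 51.3 ± 9.28 CPM, and the range in stem-like cells (34.9 to 51.1 CPM) overlapped theirs.

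Dgat1 and Dgat2 encode unrelated enzymes for the same last step. Dgat1 had the smallest enterocyte-like excess over goblet-like cells of the final-step genes: 764 ± 101 against 545 ± 144 CPM, with overlapping ranges and the same order in 5 of 5 libraries. Immature enterocyte-like cells had 488 ± 28.8 CPM, cycling-like cells 248 ± 60.2 and stem-like cells 229 ± 102. Dgat2 was steeper. Its 139 ± 23.2 CPM in enterocyte-like cells was 2.01-fold its level in immature enterocyte-like and 6.36-fold that in stem-like cells. For Dgat1 these ratios were 1.57 and 3.34.

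Plin2, a droplet-coat protein that is stable only when bound to a droplet, was the exception. Its highest level was in immature enterocyte-like cells, at 66.5, 60.2 and 96.2 CPM (sham) against 75.9 and 76.3 CPM (resection). Enterocyte-like cells measured 50.8, 42.2 and 53.3 CPM (sham) against 54.7 and 45.8 CPM (resection). The 5 libraries each showed the same order and the 2 ranges did not overlap, with a ratio of means of 1.52. The size of this gap depends on where clusters are placed. At Leiden resolution 0.5 a cluster led by Ccl20, Adm and Duoxa2, with Areg among its leading genes, was named enterocyte-like. It held Plin2 at 66.4 CPM of plain totals, beside 69.6 and 86.6 CPM in the immature enterocyte-like clusters of that setting. The level in enterocyte-like cells did not differ beyond its spread from that in goblet-like (29.6 to 64.6 CPM) or cycling-like cells (34.8 to 54.2 CPM). Plin3, a perilipin that moves from the cytosol onto droplets, had the common profile, at 272 ± 40.3 CPM in enterocyte-like, 153 ± 52.3 in goblet-like, 148 ± 33.2 in immature enterocyte-like and 68.8 ± 12.9 in stem-like cells.

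No class served as a clean negative. The T cell-like droplets held Mogat2 at 199 ± 44.6 CPM and Dgat1 at 575 ± 107 CPM, and both ranges overlapped the goblet-like ones. These droplets also held epithelial markers at 5322 to 6476 CPM and the 7 enterocyte markers at 15706 to 62000 CPM. Goblet-like cells held the same enterocyte markers at 12663 to 53436 CPM. The part of such RNA in the goblet-like levels of the 8 genes was not tested.

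Within enterocyte-like cells, position along the villus was approximated by a score, the share of 8 villus tip marker genes among tip and bottom marker UMIs. Cells of each library were ranked by it and divided into 5 bins of equal size. Over all enterocyte-like cells the bottom markers, with Reg3b and Reg3g among them, summed to 53302 to 102887 CPM and the tip markers to 1804 to 2346 CPM. Between bin 1 and bin 5 the tip markers went from 788 to 3181 CPM in sham 1 and from 944 to 4235 CPM in resection 1, and the bottom markers from 75026 to 35025 CPM and from 111646 to 16669 CPM. Apoa4, an apolipoprotein of the upper villus that is not in the score, went from 35.6 to 2123 CPM over the libraries in bin 1 to 1430 to 18232 CPM in bin 5. Bins are ranges of a score, levels in them are CPM of plain totals, and no test was made.

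Lpin2 had the steepest profile on the mean over libraries. Its mean was 37.1 ± 17.9 CPM in bin 1 and 89.4 ± 45.0 CPM in bin 5. The log2 difference was 1.31 ± 0.59 (SD, n = 5) and was positive in 5 of 5 libraries. It was smallest in sham 1 (0.28), where Lpin2 went from 52.0 to 62.9 CPM on 38 and 46 UMIs. That is below the lowest value of any library for Dgat2 (0.52) and Plin3 (0.50). Dgat2 went from 117 ± 23.7 to 186 ± 23.6 CPM (0.68 ± 0.16 on the log2 scale) and Plin3 from 224 ± 38.7 to 339 ± 57.6 CPM (0.60 ± 0.08), each in 5 of 5 libraries. Smaller differences of the same direction in 5 of 5 libraries were seen for Gpat3 (0.34 ± 0.27) and Dgat1 (0.22 ± 0.04). Mogat2 (0.08 ± 0.17), Agpat2 (0.10 ± 0.18) and Plin2 (-0.01 ± 0.34) differed by less than their spread between libraries. Ranking cells by the tip markers alone, an alternative chosen after seeing the data, gave 1.11 for Lpin2, 0.54 for Dgat2, 0.53 for Plin3, 0.42 for Gpat3 and 0.13 for Dgat1, again positive in 5 of 5 libraries for each.

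**Figure D2:**
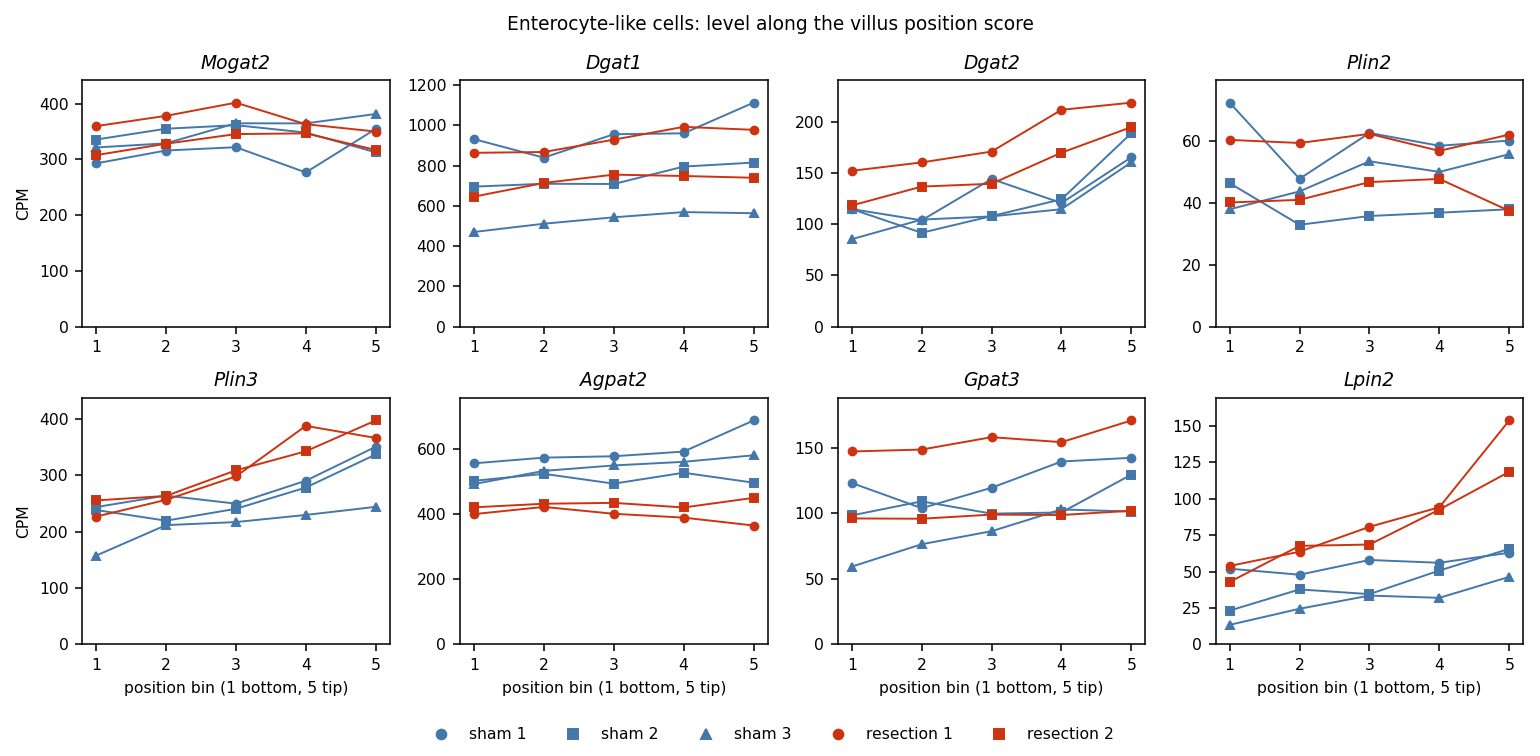
Level (CPM) of each gene in 5 bins of enterocyte-like cells ranked by the position score, from bottom (1) to tip (5), with 1 line per library. Lpin2, Dgat2 and Plin3 are higher in bin 5 than in bin 1 in all 5 libraries, Mogat2 and Plin2 show no common direction, and both resection lines for Agpat2 lie below all 3 sham lines in each bin.

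The surgery groups were also compared inside each bin. Lpin2 averaged 29.5 CPM in sham and 48.4 CPM after resection in bin 1, where the groups overlapped, and 58.3 and 136 CPM in bin 5. In bins 2, 3, 4 and 5 the resection libraries were both higher than all sham libraries. Agpat2 went the other way: its sham and resection means were 517 and 411 CPM in bin 1 and 589 and 408 CPM in bin 5, and both resection libraries lay below all 3 sham libraries in each of the 5 bins. Dgat2 was above all sham libraries in bins 1, 2, 4 and 5, and Plin3 in bins 3, 4 and 5. Of the 9715 genes tested in enterocyte-like cells, the share above every sham library was 8.9%, 10.4%, 11.3%, 11.8% and 9.93% in bins 1 to 5, and the share below was 4.59%, 6.15%, 9.6%, 9.9% and 9.45%. The bins of a library hold parts of the same sum, so they are not separate replicates of a difference. Ranks were made within each library, so a bin does not cover the same scores in both groups. Bin 5 began at a score of 0.052, 0.046 and 0.048 (sham) against 0.101 and 0.119 (resection). Bottom markers in it summed to 35025, 45904 and 32623 CPM (sham) against 16669 and 17703 CPM (resection). The part of this shift in the differences inside bins was not tested.

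In the enterocyte-like sums, the comparison of resection with sham asked whether the 8 genes differ after surgery. None passed the threshold of 0.05 in edgeR's quasi-likelihood test with Benjamini-Hochberg adjustment over all genes. The test called 0% of 9715 genes there (593 had an unadjusted p below 0.05), and DESeq2 called 84 genes, 0.865%, with none of the 8 among them. Of the 8, 7 had a positive log2 difference (47.4% of all genes did) and 1 a negative one, with a median of 0.17 beside -0.02 over all genes tested. Among the 7, Mogat2 (0.00), Plin2 (0.04) and Dgat1 (0.12) changed sign in some settings. Inside both sets 4 of the 8 were positive and 1 was negative. For 2 of 8, Lpin2 and Dgat2, both resection libraries exceeded every sham library, as they did for 11.2% of all genes. For 1 of 8, Agpat2, both were below every sham library, as for 9.29% of all genes.

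Lpin2 showed the largest difference. Its level was 46.7, 44.9 and 32.9 CPM (sham 1, 2 and 3, in this order from here on) against 78.3 and 81.2 CPM (resection 1 and 2). The 2 resection values were close to each other and above every sham value. The fitted log2 difference was 0.94 ± 0.25 (SE), a 1.92-fold higher level, with an unadjusted p of 0.0062 in edgeR and an adjusted p of 0.469. Set A gave 0.74 and set B 1.05. Between 197 and 1140 Lpin2 UMIs per library stood behind these values.

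Gpat3 was 106, 118 and 94.4 CPM (sham) against 141 and 106 CPM (resection). Resection 1 was the highest library and resection 2 lay inside the sham range. The log2 difference was 0.22 ± 0.27 (SE; edgeR adjusted p = 0.997), with 0.41 from set A and -0.01 from set B.

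Agpat2 was 503, 564 and 601 CPM (sham) against 361 and 464 CPM (resection). Both resection libraries were lower than the lowest sham library, and resection 1 was the lowest of all. The log2 difference was -0.43 ± 0.29 (SE; edgeR adjusted p = 0.968), with -0.48 inside set A and -0.33 inside set B.

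Mogat2 was 262, 381 and 389 CPM (sham) against 337 and 353 CPM (resection), with both resection libraries inside the sham range. The log2 difference of 0.00 ± 0.30 (SE) joins 0.36 inside set A with -0.12 inside set B. Sham 1 was the lowest library, and without it the difference was -0.16 (edgeR adjusted p = 0.866, between 0.866 and 0.9999 over the alternatives).

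Dgat1 was 808, 817 and 588 CPM (sham) against 836 and 771 CPM (resection), a log2 difference of 0.12 ± 0.30 (SE; edgeR adjusted p = 0.997). Sham 3 was the lowest library, and without it the difference was -0.01. Dgat2 was 110, 135 and 126 CPM (sham) against 164 and 161 CPM (resection). The groups did not overlap, and the log2 difference was 0.40 ± 0.25 (SE; edgeR adjusted p = 0.961), with 0.58 inside set A and 0.30 inside set B.

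The droplet-coat genes overlapped between groups. Plin2, at the values given above, had a log2 difference of 0.04 ± 0.24 (SE). Plin3 was 235, 285 and 234 CPM (sham) against 274 and 331 CPM (resection), a log2 difference of 0.27 ± 0.27 (SE), with 0.22 inside set A and 0.35 inside set B. The edgeR adjusted p was 0.999 for Plin2 and 0.997 for Plin3.

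**Figure D3:**
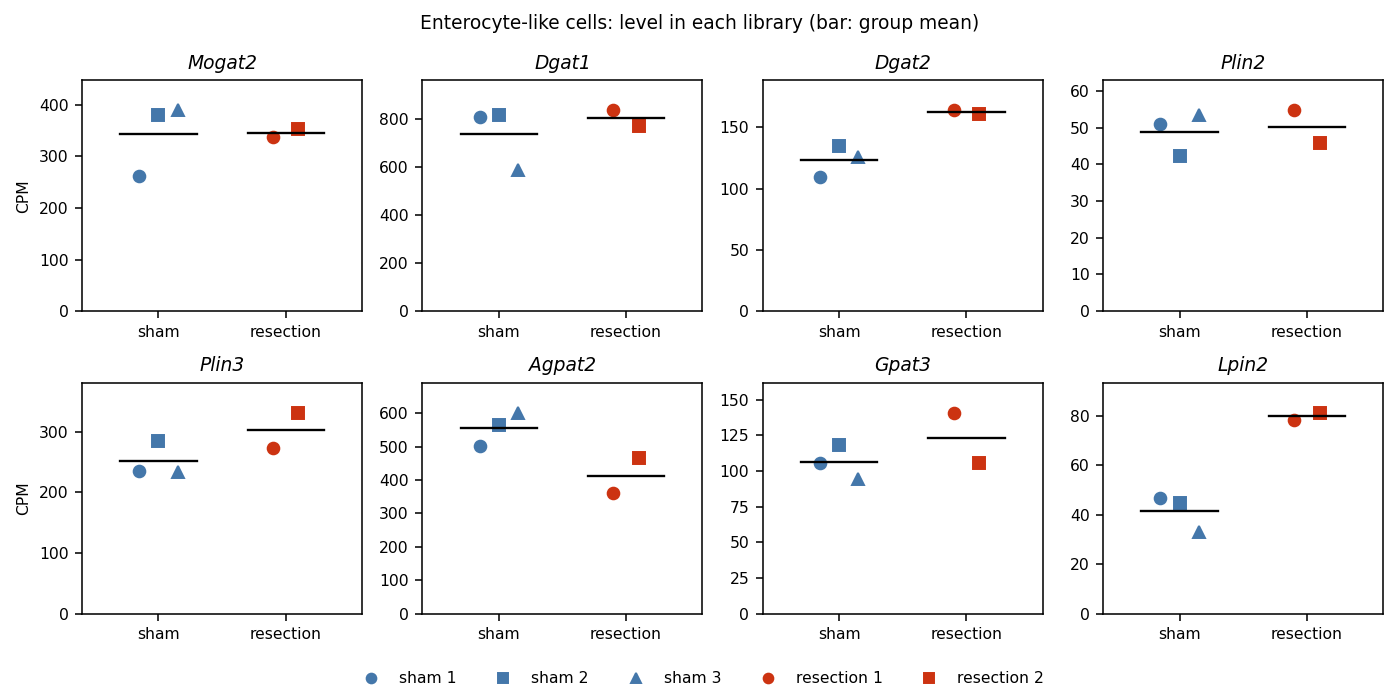
Level (CPM, axes from 0) of each gene in enterocyte-like cells, with 1 point per library and a bar at each group's mean. The 2 resection points lie above all 3 sham points for Lpin2 and Dgat2, below them for Agpat2, and overlap them for the other 5 genes.

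The makeup of the enterocyte-like sums moved with surgery too. The 7 enterocyte markers summed to 23729 to 59365 CPM in sham and 62739 to 111739 CPM after resection. The 6 immature enterocyte markers summed to 3225 to 4072 CPM in sham and 2082 to 2369 CPM after resection. The tip markers were 1804 to 2271 and 2218 to 2346 CPM. None of these markers was at 0. Their part in the Lpin2, Dgat2 and Agpat2 differences was not tested. Over the enterocyte-like clusters, the highest Lpin2 levels were in cluster 19 (159 CPM; led by Ada, Slc28a2 and Nt5e) and cluster 7 (142 CPM; led by Abcb1a, Sgk1, Pck1 and Angptl4), and 911 of the 915 cells of the latter came from resection 1. Cluster 19 also had the highest Dgat2 (269 CPM) and Plin3 (453 CPM) of these clusters.

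Lpin2 and Agpat2 were the outermost of the 8 in either direction, and the 250 bases before a RefSeq start site of each are shown for that reason (GRCm38.p6). The capitals mark the E-box CACGTG, which reads the same on both strands.
Lpin2, chr17:71183282-71183531, plus strand: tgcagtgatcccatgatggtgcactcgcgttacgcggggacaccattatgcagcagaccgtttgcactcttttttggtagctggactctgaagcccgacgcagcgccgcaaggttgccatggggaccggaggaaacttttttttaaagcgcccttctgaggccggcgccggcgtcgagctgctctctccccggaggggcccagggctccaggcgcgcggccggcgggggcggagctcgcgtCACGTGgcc
Agpat2, chr2:26604418-26604667, minus strand: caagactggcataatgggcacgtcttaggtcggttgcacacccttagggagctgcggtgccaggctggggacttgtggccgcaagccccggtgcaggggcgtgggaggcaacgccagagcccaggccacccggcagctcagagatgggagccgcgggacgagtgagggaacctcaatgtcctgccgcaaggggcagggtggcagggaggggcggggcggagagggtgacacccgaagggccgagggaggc
The Lpin2 window held 1 E-box, which begins 9 bases before the start, and 6.02% of 32851 windows of this length held at least 1. The Agpat2 window held 0. The GC box GGGCGG, searched on both strands, occurred once in the Lpin2 window and at 2 places in the Agpat2 window, and 32.7% of all windows held it. The TATA box TATAAA, searched on both strands and present in 12.4% of windows, was in neither window. RefSeq windows were found for 5 of the 8 genes, with 3 start sites for Lpin2, of which the first is printed. The other 2 Lpin2 windows held 0 E-boxes, as did the windows of the other 4 genes. A match is a description of these letters and not evidence of binding.

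In the other classes none of the 8 genes passed the edgeR threshold either. Among 10031 genes in immature enterocyte-like cells the share called was 0% (151 genes had an unadjusted p below 0.05), and 0.0399% with DESeq2, which called 4. The log2 differences of the 8 genes ran from -0.45 (Agpat2) to 0.35 (Lpin2), 4 of them positive, and for none of the 8 were both resection libraries above every sham library, as for 6.2% of all genes, or both below, as for 4.87%. Lpin2 was 17.3, 18.2 and 24.0 CPM (sham) against 23.8 and 27.5 CPM (resection) there. Agpat2 was 335, 414 and 531 CPM (sham) against 235 and 389 CPM (resection), with sham 1 below resection 2.

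In goblet-like cells the share of 6362 genes called was 0.0314% with edgeR and 0.0943% with DESeq2, and none of the 8 was called by edgeR. Dgat2 was 56.5, 80.9 and 51.7 CPM (sham) against 106 and 105 CPM (resection), above every sham library, with a log2 difference of 0.72 ± 0.36 (SE; edgeR unadjusted p = 0.0621, adjusted p = 0.999; 0.90 from set A and 0.66 from set B). Between 14 and 125 Dgat2 UMIs per library gave these values. Dgat1 was also above every sham library (590, 595 and 291 CPM in sham, 645 and 604 CPM after resection), as were 10.2% of all genes tested in this class. None of the 8 was below every sham library there, as 6.98% of all genes were. The 7 enterocyte markers in the goblet-like sums moved with surgery too. They summed to 12663 to 25911 CPM in sham and 33900 to 53436 CPM after resection. Their part in the Dgat2 and Dgat1 differences was not tested.

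In stem-like and cycling-like cells Agpat2 was again below every sham library. It was 173, 107 and 108 CPM (sham) against 79.5 and 104 CPM (resection) in stem-like cells, with a log2 difference of -0.44 ± 0.34 (SE). In cycling-like cells it was 186, 181 and 161 CPM (sham) against 119 and 150 CPM (resection), a difference of -0.38 ± 0.31 (SE). Neither passed the threshold. Of all genes, 5.26% (stem-like) and 4.72% (cycling-like) lay below every sham library, and 6.47% and 5.77% above, where none of the 8 did. The edgeR test called 0% of 7649 genes in the stem-like sums (110 at an unadjusted p below 0.05; DESeq2 2, or 0.0261%) and 0% of 8971 in the cycling-like sums (117 at an unadjusted p below 0.05; DESeq2 0). For the Paneth-like sums, 0.0163% of 6130 genes were called by edgeR and 0.0979% by DESeq2. Plin2 was below every sham library there, at 6.07, 6.85 and 11.6 CPM (sham) against 5.20 and 5.52 CPM (resection), from 12 to 27 UMIs per library. Of all genes there, 6.18% were below and 6.93% above every sham library.

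In all epithelial cells together, Lpin2 was 32.2, 26.8 and 20.5 CPM (sham) against 47.5 and 44.1 CPM (resection). The 2 groups did not overlap. The log2 difference was 0.79 ± 0.25 (SE; edgeR unadjusted p = 0.0165, adjusted p = 0.9999). Agpat2 was 364, 401 and 381 CPM (sham) against 249 and 343 CPM (resection), also without overlap, a difference of -0.37 ± 0.30 (SE). Dgat2, at 72.3, 81.4 and 67.3 CPM (sham) against 101 and 95.8 CPM (resection), differed by 0.42 ± 0.23 (SE). The edgeR test called 0% of 11760 genes in this sum (329 at an unadjusted p below 0.05) and DESeq2 36, or 0.306%. Of all genes, 7.92% were above every sham library, as Lpin2 and Dgat2 were, and 6.38% below, as Agpat2 was. Across the 6 classes the sign for Agpat2 was negative in each, whereas that for Lpin2 was negative in cycling-like cells only. The classes come from the same libraries, so they are not separate replicates. Agpat2 was negative inside set A in each class. Inside set B it was 0.17 in goblet-like, -0.05 in stem-like and -0.04 in Paneth-like cells, and negative in the others. Lpin2 was positive inside both sets in enterocyte-like and immature enterocyte-like cells only.

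**Figure D4:**
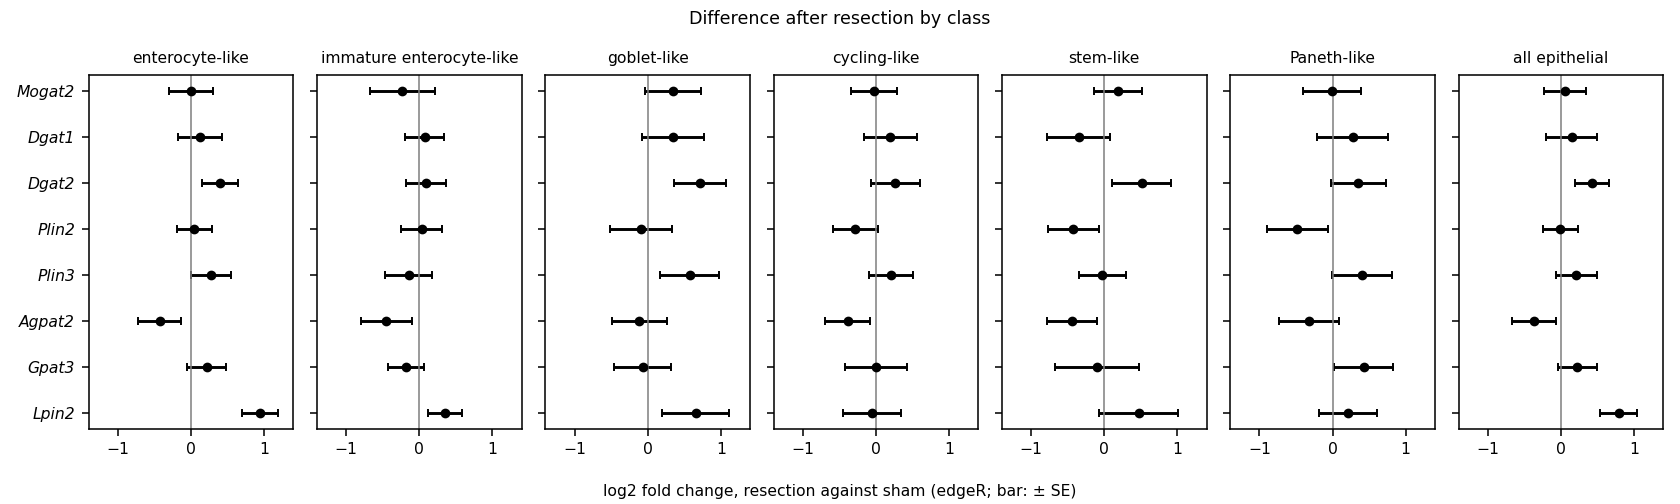
Log2 difference of resection against sham (edgeR, points, with bars of ± 1 SE) for each gene in 6 classes and in all epithelial cells. Agpat2 lies below 0 in every panel, Lpin2 lies farthest above 0 in enterocyte-like cells, and none of the points passed the adjusted threshold.

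Whether the surgery difference itself differs between enterocyte-like and immature enterocyte-like cells was tested as an interaction with library as a block. Lpin2 had the largest term, 0.67 ± 0.25 (SE) on the log2 scale, with an unadjusted p of 0.0206 in edgeR and an adjusted p of 0.416. Plin3 followed with 0.45 ± 0.21 (edgeR unadjusted p = 0.0515, adjusted p = 0.547). The other 6 terms lay between 0.03 (Plin2) and 0.41 (Gpat3). The edgeR test called 0% of 10600 genes in this comparison, with 970 at an unadjusted p below 0.05. Without sham 3 the Lpin2 term was 0.28 (edgeR adjusted p = 0.913). The immature enterocyte-like class was made up differently in each library. Cluster 4 held 212 of 874, 404 of 910 and 486 of 1450 such cells in sham 2, sham 3 and resection 2. In sham 1 and resection 1 it held 4 of 230 and 4 of 714. The part of this makeup in the interaction terms was not tested.

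Ratios within a library need no scaling between libraries. In enterocyte-like cells each 100 Dgat1 UMIs came with 13.6, 16.5 and 21.4 Dgat2 UMIs (sham) against 19.6 and 20.8 (resection). Both resection values lay inside the sham range, and the mean log2 ratio differed by 0.26 (exact two-sided permutation p = 0.4, adjusted p over 2 ratios 0.5). Each 100 Plin3 UMIs came with 21.7, 14.8 and 22.8 Plin2 UMIs (sham) against 19.95 and 13.8 (resection), a difference of -0.22 in the log2 ratio (exact two-sided permutation p = 0.5, adjusted 0.5). The smallest p this test allows with 2 of 5 libraries is 0.1. The Plin2 to Plin3 ratio was 36.2 to 68.0 per 100 in immature enterocyte-like cells, above the range in enterocyte-like cells in all 5 libraries.

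The rest of the pathway was taken from 3 lists of other enzymes and droplet proteins. In enterocyte-like cells 23 of 35 listed genes could be tested, and edgeR called 0 of them, beside 0% of all genes. Of the 23, 16 had a positive and 7 a negative log2 difference, with a median of 0.30. Of all genes tested in this class 47.4% were positive, and their median was -0.02. In the synthesis list (10 tested) 8 were positive and the median was 0.42. In the droplet list (9 tested) 4 were positive and the median was -0.04. All 4 tested genes of the lipolysis list, enzymes and a cofactor that take triglyceride apart, were positive, with a median of 0.44. In immature enterocyte-like cells 13 of 24 tested genes were positive and the median was 0.03, beside -0.003 over all genes tested there.

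Cidec, a protein that helps small droplets fuse into larger ones, had the largest difference among pathway genes with a mean of at least 20 CPM. It was 19.9, 30.8 and 20.7 CPM (sham) against 56.0 and 44.5 CPM (resection), with no overlap. The log2 difference was 1.07 ± 0.28 (SE; edgeR unadjusted p = 0.00515, adjusted p = 0.457), with 1.47 inside set A and 0.78 inside set B. Acsl5, an enzyme that activates long-chain fatty acids, was 590, 887 and 702 CPM (sham) against 1087 and 1018 CPM (resection), a difference of 0.54 ± 0.31 (SE). Lipe, the hormone-sensitive lipase, was 73.4, 70.1 and 33.8 CPM (sham) against 95.5 and 68.0 CPM (resection), with overlapping groups. The 3 lowest differences among these genes were near 0. Rab18, a droplet GTPase, differed by -0.07 ± 0.25, Agpat1 by 0.03 ± 0.51 and Cideb by 0.07 ± 0.44 (SE). The edgeR adjusted p was between 0.946 and 0.999 for these 5 genes.

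**Figure D5:**
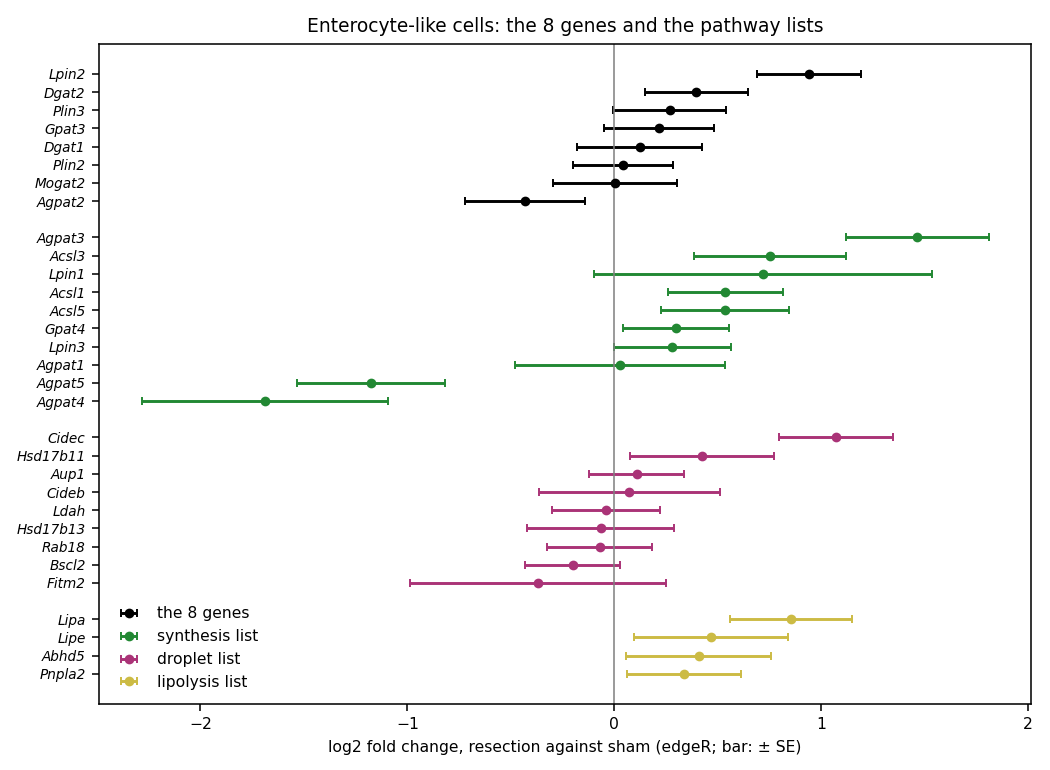
Log2 difference of resection against sham in enterocyte-like cells (edgeR, points, with bars of ± 1 SE) for the 8 genes and for the tested genes of the synthesis, droplet and lipolysis lists. Lpin2 and Cidec lie near 1, the 4 lipolysis genes all lie above 0, and no gene passed the adjusted threshold.

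The genes whose levels followed each of the 8 most closely were found over 30 sums of class and library, among 4761 genes, by Pearson's r of log2(CPM + 1). The 30 points share libraries and cell classes, so r describes a pattern and carries no test. Dgat2 was followed most closely by Mttp (r = 0.990), the transfer protein that loads lipid onto nascent chylomicrons, then by Eps8 (0.985) and Heph (0.980). Mogat2 was followed by the amino acid transporter gene Slc7a9 (0.988), Srxn1 (0.985) and Krt20 (0.982), and Dgat1 by Acaa1a (0.983), a peroxisomal thiolase, Aoc1 (0.977) and Prkcz (0.975). Plin3 was followed by Maoa (0.978), Naprt (0.972) and Klc4 (0.971), and Plin2 by Anxa7 (0.955), Cpt2 (0.948) and Slc35b3 (0.947). Agpat2 was followed by Mall (0.973), Ms4a8a (0.972) and 2200002D01Rik (0.970). Gpat3 was followed by Trim40 (0.955), Emp1 (0.950) and Pbld2 (0.944), and Lpin2 by Pbld2 (0.940), Map2k4 (0.919) and Rnf115 (0.895).

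Among the 8 genes themselves, Mogat2 and Dgat2 had the closest profiles over these sums (r = 0.964), followed by Dgat1 and Plin3 (0.949). Gpat3 and Lpin2 had r = 0.893. Plin2 stood apart, with its highest r at 0.802 (Agpat2) and its lowest at 0.557 (Lpin2).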

How the data were processed

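The deposited values are UMI counts, not normalized, in a separate matrix for each library. Per the labels they come from 10x 3' v2 libraries and Cell Ranger, whose version is given there with a question mark. Builds named in the submitters' processing notes are mm10 and GRCm38. Cells under 500 genes or over 20% mitochondrial UMIs were left out, and 720 likely doublets were removed by a scrublet-type score computed for this work. Clustering used 2000 variable genes without the 8 genes, the pathway lists and mitochondrial genes, 30 principal components, 20 neighbours and Leiden resolution 1.0 (leidenalg 0.10.2, scanpy 1.11.5), with no batch correction. Clusters were named from marker lists. A cluster stayed unnamed where a marker of another class outnumbered its own among its 10 leading genes.

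Counts were summed per library and class, leaving out classes under 20 cells in any library. The test was that of edgeR 4.0.16 (R 4.3.3; TMM scaling, filterByExpr, two-sided quasi-likelihood F), and p-values were adjusted by Benjamini-Hochberg over all genes of a class. All 8 genes passed the filter in each class. SE is the log2 difference divided by the square root of F. Differences inside a set are log2 ratios of mean CPM with 0.5 added. Alternatives were DESeq2 1.42.0, RLE size factors, no filter, a replicate block, a term for the set of libraries, doublets kept, resolution 0.5, 3 bins, and each library left out in turn. The fit was tested on simulated data. Named pathway genes are the 3 highest and the 3 lowest by log2 difference among those with a mean of at least 20 CPM. Gene positions come from GENCODE M21. The 8 genes, the lists and the tests were chosen with earlier results of these data known.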

Additional observations from a re-analysis of the deposited data

How the results depend on the processing

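The number of genes called moved with the setting. In enterocyte-like cells edgeR called 0 genes, against 84 with DESeq2, 136 with no filter on low counts, 26 with the set of libraries as a term, 1 with doublets kept and 1 with the unnamed cluster counted as enterocyte-like (chosen after seeing the data). In immature enterocyte-like cells these were 0, and 4 (DESeq2), 30 (no filter), 1 (set term) and 1 (doublets kept). In stem-like cells they were 0, and 2 (DESeq2), 4 (no filter) and 2 (set term). In cycling-like cells they were 0, and 10 with no filter. In goblet-like cells they were 2, and 6 (DESeq2), 28 (no filter), 1 (set term) and 4 (Leiden resolution 0.5). In Paneth-like cells they were 1, and 4 (RLE size factors), 6 (DESeq2), 13 (no filter), 7 (set term), 2 (doublets kept) and 4 (Leiden resolution 0.5). In all epithelial cells they were 0, and 36 (DESeq2), 18 (no filter) and 1 (set term). In the interaction they were 0, and 302 with no filter.

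Leaving out 1 library gave between 0 and 3 genes in enterocyte-like, 0 and 3 in stem-like, 0 and 7 in goblet-like and 0 and 13 in Paneth-like cells, and between 0 and 143 in the interaction, where 143 came without sham 2. Without 1 library the Dgat2 to Dgat1 log2 ratio differed by 0.11 to 0.43 and the Plin2 to Plin3 log2 ratio by -0.49 to 0.041. In these runs an arm can hold 1 library, which is assumed to vary like the others. The cause of these shifts was not tested.

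The replicate numbers of the labels are not said to mark a shared animal or day. Deviations of sham 1 with resection 1 correlated at 0.608 over genes and those of sham 2 with resection 2 at 0.267, over 2 pairs. Sham 3 with resection 2, which have different numbers, correlated at 0.476, and sham 3 with resection 1 at -0.476. Deviations of the 2 resection libraries are mirror images of each other. These correlations are therefore tied to one another and cannot decide whether the numbers mark pairs. A fit with the replicate number as a block called 283 genes (2.91%) in enterocyte-like, 39 in immature enterocyte-like, 2 in stem-like, 6 in cycling-like, then 84 in goblet-like, 47 in Paneth-like and 149 in all epithelial cells. In that block fit Lpin2 in enterocyte-like cells had a log2 difference of 0.80 (edgeR adjusted p = 0.0339, between 0.0339 and 0.9999 over the alternatives) and Cidec one of 0.99 (edgeR adjusted p = 0.0400, between 0.0400 and 0.9999). These were the only calls among the 8 genes and the named pathway genes in the settings tried in enterocyte-like cells.

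In enterocyte-like cells the log2 difference of Lpin2 stayed between 0.80 and 1.04, that of Dgat2 between 0.32 and 0.46 and that of Agpat2 between -0.63 and -0.25. Differences near 0 changed sign. Mogat2 was 0.00 with RLE size factors (-0.0039), DESeq2 (-0.0040) and the unnamed cluster counted in (-0.0066), and -0.018 with doublets kept. Dgat1 was -0.017 in enterocyte-like and -0.053 in all epithelial cells with the block. Plin2 was -0.075 in enterocyte-like cells at resolution 0.5, and in all epithelial cells 0.0080 with no filter and 0.14 with the block. With the block, Mogat2 was 0.10 in immature enterocyte-like cells, and Rab18 was 0.019 and Agpat1 -0.21 in enterocyte-like cells. Agpat1 was -0.18 with the set term and -0.020 with doublets kept. The Plin2 interaction was -0.0028 with no filter, and the Plin2 position difference was 0.038 with 3 bins and 0.032 with tip markers alone.

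Without 1 library, in enterocyte-like cells, Mogat2 ran from -0.16 to 0.11, Dgat1 from -0.010 to 0.20, Plin2 from -0.082 to 0.16, Rab18 from -0.21 to 0.018, Agpat1 from -0.70 to 0.60 and Cideb from -0.25 to 0.35. In immature enterocyte-like cells Mogat2 ran from -0.72 to 0.13, Dgat2 from -0.059 to 0.26, Plin2 from -0.11 to 0.26 and Plin3 from -0.47 to 0.12. In all epithelial cells Mogat2 ran from -0.068 to 0.20, Dgat1 from -0.046 to 0.29, Plin2 from -0.12 to 0.14 and Gpat3 from -0.017 to 0.44. Interaction terms ran from -0.13 to 0.61 (Mogat2), -0.051 to 0.18 (Dgat1), -0.16 to 0.12 (Plin2) and -0.12 to 0.22 (Agpat2), and the Plin2 position difference from -0.15 to 0.057. TMM scaling of the position bins was not run, and resolution 0.5 gave no value for stem-like and cycling-like cells. At the depth of stem-like and goblet-like sums in sham 1 (30 and 35 cells) the low genes rest on few UMIs.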

Other observations

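Other enzymes of the step that Agpat2 carries out differed in direction in enterocyte-like cells, and none passed the threshold. The genes named here lie under the 20 CPM used to name pathway genes and were chosen after their values were seen. Agpat3 was 10.3, 8.01 and 10.0 CPM in sham 1, 2 and 3, against 35.2 and 16.8 CPM in resection 1 and 2. The resection libraries lay above every sham library, with a log2 difference of 1.47 ± 0.35 (SE; edgeR unadjusted p = 0.00314, adjusted p = 0.402). Agpat5 was 10.96, 5.59 and 7.86 CPM (sham) against 3.43 and 3.70 CPM (resection), a difference of -1.17 ± 0.36 (SE; edgeR adjusted p = 0.631). Agpat4 was 23.7, 5.14 and 12.2 CPM (sham) against 5.01 and 3.32 CPM (resection), a difference of -1.69 ± 0.60 (SE; edgeR adjusted p = 0.740). Agpat4 and Agpat5 were below every sham library after resection. Lipa, the lysosomal acid lipase, was 10.3, 17.4 and 13.4 CPM (sham) against 29.0 and 20.7 CPM (resection), above every sham library, a difference of 0.85 ± 0.30 (SE; edgeR adjusted p = 0.740).

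The unnamed cluster, which held few cells of sham 1 and resection 1, had Mogat2 at 327, 368 and 306 CPM in sham 2, sham 3 and resection 2, near the enterocyte-like values. Its Lpin2 level was 20.5, 29.2 and 32.9 CPM and its Dgat2 level 74.9, 88.6 and 92.1 CPM in the same libraries, near the immature enterocyte-like values. Levels of the unnamed cluster are CPM of plain totals, while those of the named classes use TMM-scaled library sizes, so the likeness is approximate.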
